A study of Homo sapiens with 6 samples.

Results

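The small-subunit processome is the large nucleolar particle that assembles on the newly made pre-ribosomal RNA and folds and cuts it on the way to the small ribosomal subunit. A list of 40 genes that encode its proteins, or proteins that act on the later precursor of that subunit, was drawn up from what is known of the complex. Earlier results of these data were known when the list was chosen. All 40 genes were found by Ensembl identifier among the 20461 protein-coding genes of the RNA-seq table. Cells were of the human line PANC1, grown from a pancreatic ductal carcinoma. They received either vehicle (0.1% DMSO) or gemcitabine at 50 nM in the RNA-seq experiment, for 48 hours. Gemcitabine is a deoxycytidine analogue that is built into DNA and blocks its synthesis. RNA-seq was done on 2 biological replicates per condition and DNaseI-seq, which maps open chromatin, on 1 library per condition, all from this single cell line.

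Ribosome assembly starts while RNA polymerase I is still transcribing the ribosomal genes. The U3 ribonucleoprotein pairs with the leading spacer of the pre-ribosomal RNA, the UTP-A and UTP-B complexes bind around it, and the MPP10 complex, helicases, nucleases and scaffold proteins follow. In growing tumour cells, the particle is made in large amounts, and its genes are known as housekeeping genes of the nucleolus.

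A sequence feature of these genes, which was not used to choose them, was the E-box hexamer CACGTG, a core sequence that several helix-loop-helix proteins can bind. It was searched in the hg19 sequence from 250 bases before to 50 bases after the annotated transcription start. The hexamer is its own reverse complement, so a match is the same on both strands. The hexamer was present in 18 of the 40 windows (45.0%, 95% Wilson interval 30.7 to 60.2%). It was present in 9.79% of the 14203 tested genes with an annotated start, and in 11.5% of the 7441 of them whose vehicle FPKM was at least that of the lowest member of the list. Within 50 bases of the start it was found in 17 of the 40 genes (42.5%), against 3.84% of the 14203 genes and 4.91% of the 7441. For 15 of the 18 genes, the E-box nearest the start began between 16 bases before and 28 bases after it. The 30-base runs around it are shown for the genes called lower after gemcitabine (defined below) whose E-box lay near the start, because they let the position and flanks of the hexamer be compared. Each is read along the strand of its gene, 5′ to 3′, from the hg19 reference, with the hexamer in capitals.
RRP9 (chr3:51975908-51975937, minus strand): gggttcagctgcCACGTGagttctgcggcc
WDR43 (chr2:29117524-29117553, plus strand): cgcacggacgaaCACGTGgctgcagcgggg
PWP2 (chr21:45527269-45527298, plus strand): tgagctgcggcaCACGTGcgacggccgtga
UTP18 (chr17:49337899-49337928, plus strand): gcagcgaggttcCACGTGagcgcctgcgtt
IMP4 (chr2:131100473-131100502, plus strand): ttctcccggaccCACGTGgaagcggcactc
NOL6 (chr9:33473892-33473921, minus strand): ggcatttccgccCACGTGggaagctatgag
RCL1 (chr9:4792936-4792965, plus strand): cctgttccaaacCACGTGgacgcgtctggg
UTP20 (chr12:101673861-101673890, plus strand): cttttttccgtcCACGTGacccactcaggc
UTP25 (chr1:210001319-210001348, plus strand): agtcagcgagccCACGTGcttgtgttgact
NAT10 (chr11:34127149-34127178, plus strand): aatgcgcttgcgCACGTGctgtctaccagt
LTV1 (chr6:144164491-144164520, plus strand): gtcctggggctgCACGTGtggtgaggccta
In RRP9, UTP20 and NAT10 the hexamer began 5, 10 and 15 bases before the annotated start, and in the other 8 genes 1 to 28 bases after it. UTP18 and IMP4 each held 2 hexamers in the window.

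The RNA-seq libraries held 15153593 and 15766237 assigned fragments for vehicle and 13194533 and 13275457 for gemcitabine. Levels in a library are given here as CPM, fragment counts relative to library size, with library sizes adjusted by edgeR's trimmed mean of M-values. Before that adjustment, 3 fragments, the limit that a count of 0 allows, correspond to 0.190 to 0.227 CPM. Levels of different genes are compared only as FPKM, which also divides by transcript length. Replicates of a condition were not the same library deposited again, since their counts gave a chi-square per gene that averaged 2.17 for vehicle and 5.16 for gemcitabine, above the sampling noise. Among the 8 markers of the cell line, KRT7, KRT8, KRT18 and VIM were highly expressed. In contrast, KRT19 had 45 fragments in each vehicle library and 94 and 88 after gemcitabine. CDH1 had 4 to 13 fragments in any library, EPCAM 45 to 80 and SOX9 169 to 233. KRT19 was called higher (log2 fold change 1.13, edgeR adjusted p = 0.000651). KRT8 and KRT18 rose by less (0.29 and 0.27, adjusted p = 0.00319 and 0.00586) and KRT7 fell (−0.18, adjusted p = 0.0426). EPCAM, SOX9, CDH1 and VIM did not pass (−0.45, −0.18, 1.10 and 0.028, edgeR adjusted p = 0.173, 0.293, 0.134 and 0.803). Of 9 markers of other cell types that matched, CD3E, ALB, PRSS1, INS and GCG were at 0 in all 4 libraries. PTPRC had 2 to 9 fragments, ACTA2 and CD68 were detected, and COL1A1 was highly expressed, with 56723 to 62658 fragments per library. The mean vehicle level of COL1A1, 866 FPKM, lay between those of KRT8 (486 FPKM) and KRT7 (1604 FPKM). CD68 and ACTA2 were higher after gemcitabine (log2 fold change 0.94 and 0.53, edgeR adjusted p = 6.53e-05 and 0.000110). Exons of ACTA2 overlap those of FAS on the other strand, as those of KRT8 and KRT18 overlap each other. Reads from such overlaps cannot be assigned to 1 gene here. The summed level of the 9 markers, mostly COL1A1, was 934 FPKM in both vehicle libraries and 1102 and 1205 FPKM after gemcitabine. In the counts, COL1A1 had a log2 fold change of 0.034 (edgeR adjusted p = 0.739), and the FPKM of all tested genes had a median log2 ratio of 0.14. The part of these markers in the results below was not tested.

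Expression of the processome genes was lower after gemcitabine in nearly the whole list. The members' summed level was 3505 and 3532 CPM in the vehicle libraries and 2336 and 2377 CPM in the gemcitabine libraries. The log2 fold change was below 0 for 39 of 40 members (49.3% of all 14854 genes tested), and the median member was at 68.6% of its vehicle level (median log2 fold change −0.54, quartiles −0.74 and −0.34). Over all tested genes, the median log2 fold change was 0.0069. Because the members were chosen with earlier results of these data known, their shares beside all genes, here and below, are a description and not a test. In these bulk samples, less RNA per cell and fewer cells making the RNA cannot be told apart.

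In the quasi-likelihood test of edgeR, with p-values adjusted by Benjamini-Hochberg over all tested genes, 36 members were lower at an adjusted p under 0.05 and none was higher (1, KRR1, was higher at an unadjusted p under 0.05, and by DESeq2 none was). The background was 20.0% of all tested genes lower and 18.5% higher, and 29.97% (2271) lower among the 7577 genes at or above the vehicle FPKM of the lowest member (11.3 FPKM). A gene was then called lower where the fold change also exceeded 1.5 and the mean FPKM reached 0.1 in a condition and differed by at least 1. This held for 17 of the 40 members, against a background of 4.42% of all tested genes (5.99% of the 7577 genes at the members' level). No member was called higher, where 5.69% of all tested genes were. Of the other 23 members, 19 fell by less than the 1.5-fold limit, and TBL3, UTP6, UTP23 and KRR1 did not pass the adjusted p. The called members stood 34.5% to 62.9% below vehicle, and 5 of them, RRP9, IMP4, UTP20, NOP56 and WDR43, by more than 50% (log2 fold change under −1, found in 2.22% of all tested genes). Just inside the fold limit of 0.585 on the log2 scale lay UTP25 at −0.61, and just outside it NOP14 at −0.57.

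**Figure D1:**
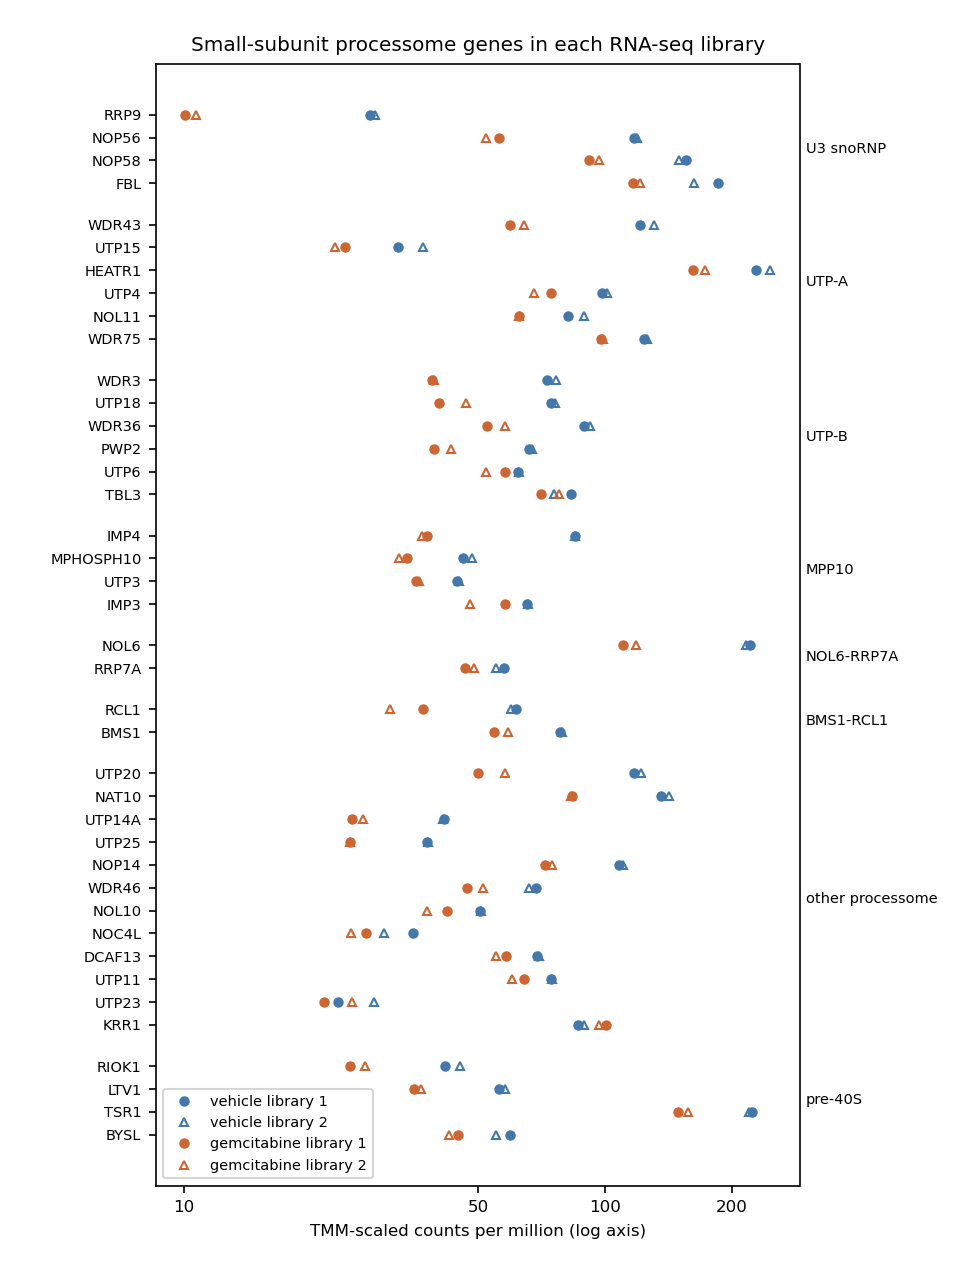
Level of each of the 40 genes in each RNA-seq library (TMM-scaled CPM, log axis), with vehicle in blue and gemcitabine in orange and genes grouped by subcomplex. Both gemcitabine libraries lie below both vehicle libraries for 37 genes, and TBL3, UTP23 and KRR1 are the exceptions.

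Both gemcitabine libraries were below both vehicle libraries in CPM for 37 members, where 34.7% of all tested genes showed this. The groups overlapped for TBL3 and UTP23. For KRR1 both gemcitabine libraries were above both vehicle libraries, as they were for 35.0% of all tested genes. Replicate libraries differed by a median of 2.89% per member for vehicle and 6.15% for gemcitabine, and at most by 19.6% (UTP23, vehicle) and 19.0% (IMP3, gemcitabine). The standard error of a member's log2 fold change was 0.065 to 0.12, with 140 to 3754 fragments per member and library. Leaving out 1 library at a time moved the number called lower between 17 and 18. UTP15 was added without vehicle library 1, FBL without vehicle library 2 and NOP14 without gemcitabine library 2. Without gemcitabine library 1, UTP15 was added and RIOK1 was lost, through its FPKM, since its log2 fold change was then −0.69. The number lower at an adjusted p under 0.05 ranged from 28 to 37. UTP6 passed without gemcitabine library 1 (log2 fold change −0.25, adjusted p = 0.00849). IMP3, UTP3, RRP7A, UTP11, NOL10, NOC4L and DCAF13 no longer passed when either of the vehicle libraries was left out. The same was true of BYSL without vehicle library 1 and of IMP3 without gemcitabine library 2.

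The list held 4 proteins of the U3 ribonucleoprotein, with a median log2 fold change of −0.91. All 4 fell and 3 were called. SNU13, another core protein of this particle, stood in the list of other small-subunit factors and is named here after its values were seen. It fell less, to 82.8% of vehicle (log2 fold change −0.27 ± 0.07 SE, edgeR adjusted p = 0.00458), and was not called. RRP9, the protein that recognises the U3 RNA itself, fell most among all 40 members. Its level was 27.7 and 28.4 CPM in the vehicle libraries and 10.1 and 10.7 CPM in the gemcitabine libraries (log2 fold change −1.43 ± 0.11 SE, edgeR adjusted p = 3.34e-07). Its gemcitabine libraries thus lay far below the vehicle libraries, at 37.1% of their level. NOP56 and NOP58 are paired scaffold proteins of the box C/D particles, the class of small nucleolar ribonucleoproteins to which U3 belongs. NOP56 had 117 and 119 CPM in vehicle and 56.1 and 52.3 CPM in gemcitabine (log2 fold change −1.13 ± 0.07 SE, edgeR adjusted p = 7.50e-08). NOP58 fell less, to 61.6% of vehicle (log2 fold change −0.70). FBL, fibrillarin, the methyltransferase of these particles, was the most highly expressed member, at a mean of 288 FPKM in vehicle. Its levels were 185 and 163 CPM in vehicle and 117 and 121 CPM in gemcitabine, so the groups did not overlap, and its fall (log2 fold change −0.55 ± 0.07 SE, edgeR adjusted p = 4.56e-05) stayed under the 1.5-fold limit.

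In UTP-A, the complex that binds the pre-ribosomal RNA first and is tied to its transcription, all 6 genes fell and 1 was called, with a median log2 fold change of −0.50. WDR43 stood apart from the other 5. It had 121 and 130 CPM in vehicle and 59.4 and 64.1 CPM in gemcitabine, a fall to 49.1% (log2 fold change −1.03 ± 0.07 SE, edgeR adjusted p = 1.91e-07). The other genes, HEATR1, UTP4, UTP15, NOL11 and WDR75, had log2 fold changes between −0.56 and −0.34. HEATR1, a very long protein of helical repeats, gave the most fragments of any member and was at 228 and 246 CPM in vehicle and 162 and 172 CPM in gemcitabine. The smallest fall was that of WDR75, from 124 and 126 CPM to 97.8 and 98.9 CPM (log2 fold change −0.34 ± 0.07 SE, edgeR adjusted p = 0.000824). Its replicates were close together, and the groups did not overlap.

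UTP-B, a second complex built mainly of beta-propeller proteins, was split. Of its 6 genes, WDR3, UTP18, WDR36 and PWP2 were called lower, with log2 fold changes of −0.94, −0.79, −0.72 and −0.69, while UTP6 and TBL3 did not pass the test. WDR3 had 72.9 and 76.5 CPM in vehicle and 38.9 and 39.2 CPM in gemcitabine (log2 fold change −0.94 ± 0.08 SE, edgeR adjusted p = 5.35e-07). UTP18, which helps bring the RNA exosome to the particle, had 74.4 and 75.9 CPM in vehicle and 40.4 and 46.8 CPM in gemcitabine. UTP6 was at 62.3 CPM in both vehicle libraries and at 57.9 and 52.3 CPM in gemcitabine (log2 fold change −0.18 ± 0.08 SE, edgeR adjusted p = 0.0840). TBL3 was at 83.1 and 75.5 CPM in vehicle and 70.5 and 77.6 CPM in gemcitabine, so the groups overlapped (log2 fold change −0.10 ± 0.08 SE, edgeR adjusted p = 0.340). The sign of the TBL3 value depended on the scaling, since it was 0.011 with library totals in place of the trimmed mean.

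The MPP10 complex joins the U3 RNA to its target on the pre-ribosomal RNA. All 4 genes fell and IMP4 was the 1 called. IMP4, a protein with an RNA-binding Brix domain, had 84.8 and 84.6 CPM in vehicle and 37.8 and 36.9 CPM in gemcitabine, a fall to 44.1% (log2 fold change −1.18 ± 0.07 SE, edgeR adjusted p = 7.27e-08). Its replicates were close, differing by 0.232% in vehicle and 2.59% in gemcitabine. MPHOSPH10, the core protein of the complex, had a log2 fold change of −0.51, and UTP3 of −0.32. The smallest change was that of IMP3, at 65.4 and 65.8 CPM in vehicle and 57.9 and 47.9 CPM in gemcitabine (log2 fold change −0.31 ± 0.09 SE, edgeR adjusted p = 0.0118).

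Both small modules that follow had a called gene and a gene with a smaller fall. NOL6, the human counterpart of yeast Utp22, fell from 220 and 216 CPM to 110 and 118 CPM (log2 fold change −0.93 ± 0.07 SE, edgeR adjusted p = 2.27e-07). Its partner RRP7A went from 57.6 and 55.2 CPM to 46.5 and 48.8 CPM (log2 fold change −0.24 ± 0.08 SE, edgeR adjusted p = 0.0215). RCL1, a cyclase-like protein of the early cleavage steps, had 61.5 and 59.8 CPM in vehicle and 37.0 and 30.9 CPM in gemcitabine (log2 fold change −0.84 ± 0.09 SE, edgeR adjusted p = 6.69e-06). Its gemcitabine libraries differed by 18.0%, less than the gap to vehicle. The GTPase BMS1, which binds RCL1, had a log2 fold change of −0.47 and was not called.

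Of 12 further factors of the particle, 11 had a log2 fold change below 0, and the median was −0.39. At an adjusted p under 0.05, 10 were lower, 4 of them past the 1.5-fold limit. UTP20, a giant scaffold of helical repeats, had 117 and 122 CPM in vehicle and 49.9 and 57.8 CPM in gemcitabine (log2 fold change −1.15 ± 0.08 SE, edgeR adjusted p = 1.53e-07). The RNA acetyltransferase NAT10 had 136 and 141 CPM in vehicle and 83.5 and 82.9 CPM in gemcitabine (log2 fold change −0.74). UTP14A, the activator of the helicase DHX37, fell to 62.4% and UTP25, a helicase-like protein, to 65.5% of vehicle. Reads of UTP14A can also match its retrocopy UTP14C, which was assigned 405 to 517 fragments per library. NOP14, WDR46, NOL10, NOC4L, DCAF13 and UTP11 fell with log2 fold changes between −0.57 and −0.27. UTP23, a protein with a degenerate nuclease domain, had 23.2 and 28.2 CPM in vehicle and 21.5 and 25.04 CPM in gemcitabine, and the groups overlapped (log2 fold change −0.15 ± 0.12 SE, edgeR adjusted p = 0.343). Its log2 fold change was 0.011 without vehicle library 2.

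KRR1, an RNA-binding protein with KH domains, was the only member with a positive value. It had 86.2 and 89.2 CPM in vehicle and 100.4 and 96.6 CPM in gemcitabine (log2 fold change 0.17 ± 0.07 SE, edgeR adjusted p = 0.0616). Both gemcitabine libraries were above both vehicle libraries, but the difference did not pass the adjusted p. It passed with library totals (log2 fold change 0.28, adjusted p = 0.00514), with edgeR's own expression filter (adjusted p = 0.0419) and without gemcitabine library 2 (adjusted p = 0.0136). By FPKM it was at a mean of 37.1 in vehicle and 37.2 in gemcitabine, with overlapping libraries. An exon of KRR1 overlaps an exon of GLIPR1 on the other strand.

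The 4 late factors, which act on the later precursor of the 40S subunit, all fell, and LTV1 and RIOK1 were called. The kinase RIOK1 had 41.7 and 45.3 CPM in vehicle and 24.9 and 26.9 CPM in gemcitabine (log2 fold change −0.75 ± 0.09 SE, edgeR adjusted p = 1.79e-05). LTV1, an export and assembly factor, had 56.1 and 57.8 CPM in vehicle and 35.2 and 36.6 CPM in gemcitabine (log2 fold change −0.67). TSR1, a GTPase-like factor, fell to 69.0% of vehicle, just outside the fold limit. BYSL changed least, from 59.4 and 55.2 CPM to 44.7 and 42.7 CPM (log2 fold change −0.39 ± 0.08 SE, edgeR adjusted p = 0.00129).

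**Figure D2:**
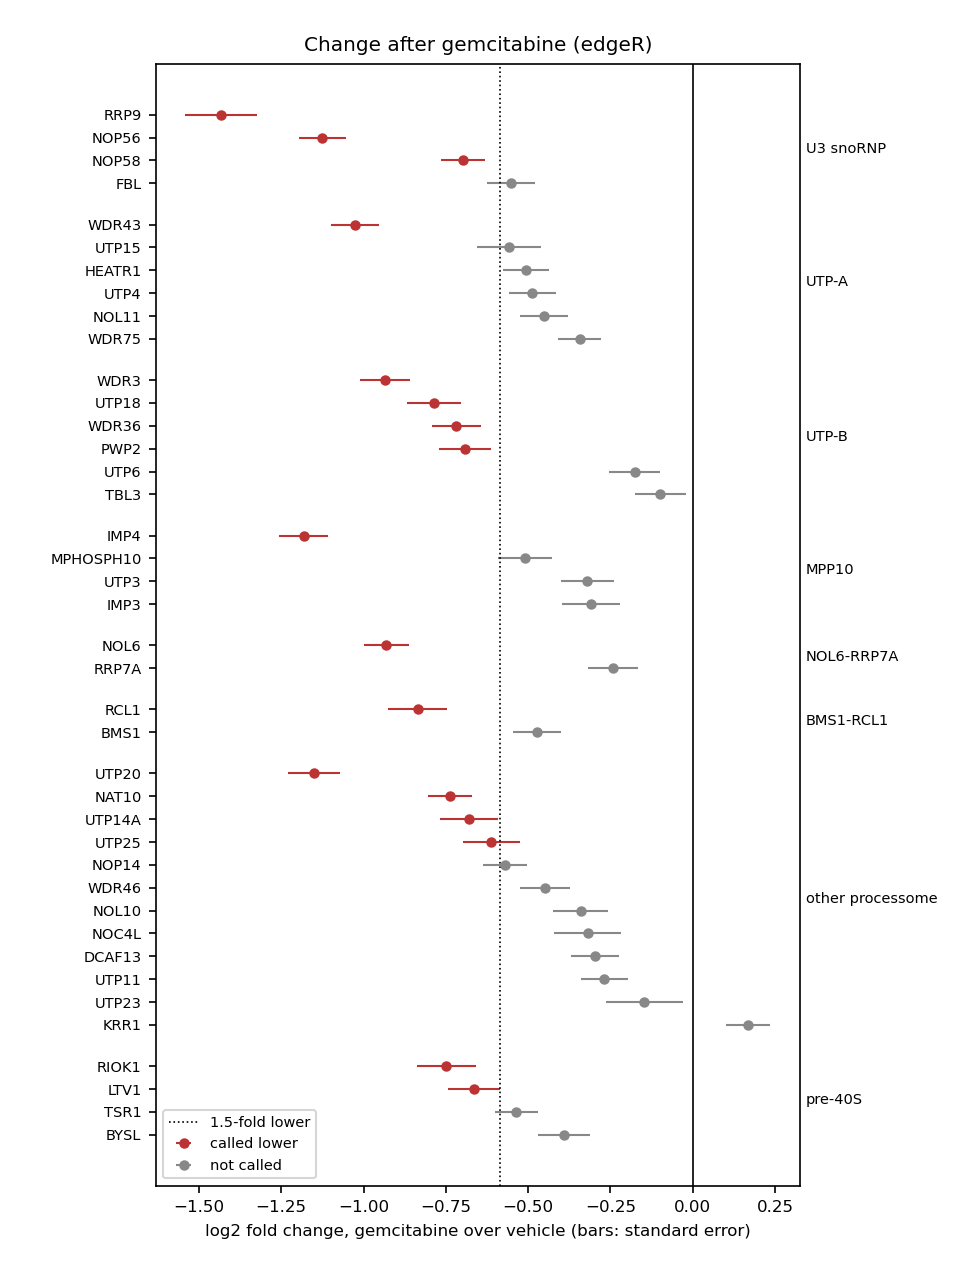
Log2 fold change of each gene, gemcitabine over vehicle, from edgeR (bars are standard errors derived from the edgeR test, 2 libraries per condition), with called genes in red and the dotted line at 1.5-fold lower. Values run from −1.43 for RRP9 to 0.17 for KRR1, and called and uncalled genes occur in every subcomplex.

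The size of the fall showed little relation to the level of the gene. Across the 40 members, Spearman's rho between the log2 fold change and the log2 of vehicle FPKM was 0.087, a description over genes that share the same 4 libraries. Mean vehicle FPKM ran from 11.3 for UTP25 and 11.9 for UTP20 up to 145 for NOP56 and 288 for FBL. The library kit did not keep the strand, so reads from overlapping genes on opposite strands cannot be told apart. Exons of 10 members overlap those of another protein-coding gene, on the other strand for HEATR1, UTP15, WDR3, IMP3, UTP23, DCAF13, KRR1 and TSR1, on the same strand for LTV1, and on both for TBL3.

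The authors' FPKM gave smaller falls than the counts for most members. The median log2 ratio of mean FPKM was −0.39 over the members and 0.14 over all tested genes. In the counts, these medians were −0.54 and 0.0069, so the median of all tested genes also lay higher in FPKM. Both gemcitabine libraries were below both vehicle libraries in FPKM for 35 members, where 20.3% of all tested genes showed this, and the exceptions were UTP15, TBL3, UTP6, KRR1 and RIOK1. RIOK1 differed most between the scales. It was at 28.9 and 36.3 FPKM in vehicle and 21.05 and 31.8 FPKM in gemcitabine, so that its libraries overlapped in FPKM though not in CPM. Its log2 ratio was −0.30 in FPKM and −0.75 in counts. UTP15 gave −0.22 in FPKM and −0.56 in counts, and TBL3 0.14 and −0.10. FPKM is summed over isoforms whose shares Cuffdiff estimates, whereas the counts are not divided by length. With limma on log2(FPKM + 1) and genes of a mean of at least 0.1 FPKM, 11 members were called lower, and PWP2, WDR36, UTP14A, UTP25, LTV1 and RIOK1 were not.

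**Figure D3:**
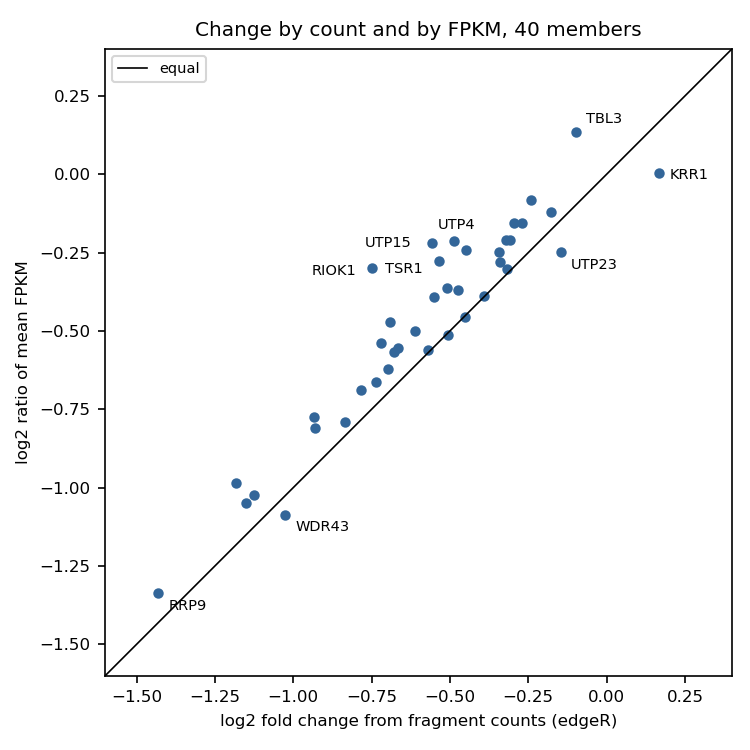
Log2 fold change from fragment counts (x axis) against the log2 ratio of mean FPKM (y axis) for the 40 genes, with the line of equality. Most points lie above the line, RIOK1 farthest from it (−0.75 by counts and −0.30 by FPKM), and TBL3 changes sign.

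Other genes of ribosome synthesis were compared through 3 lists from the same fit. Of 34 assembly factors of the large subunit, 18 were called lower and none higher, 30 were lower at an adjusted p under 0.05, and the median log2 fold change was −0.61. The nucleolar GTPase GNL3 (−0.89) and the AAA-type ATPase MDN1 (−1.05) had the smallest adjusted p-values in that list. Of 14 genes of RNA polymerase I and its factors, 5 were called lower and none higher, 12 were lower at an adjusted p under 0.05, and the median was −0.40. The core subunits POLR1B and POLR1A had the smallest adjusted p-values in that list, with log2 fold changes of −0.90 and −0.87. Of 22 other small-subunit factors that matched, 5 were called lower and none higher, and the median was −0.23. At an adjusted p under 0.05, 11 were lower and the other 11 did not pass. The log2 fold change was below 0 for 18 of these 22, beside 39 of the 40 members. Because SNU13, a core protein of the U3 particle, stands among the 22, the 40 members do not hold every protein of the processome. RRP12, DHX37, PNO1 and ESF1 headed this list, with log2 fold changes between −1.32 and −0.86. Cuffdiff marked DHX37 as failed in all 4 libraries and TAF1D, of the RNA polymerase I list, in 1, while no member of the processome list was so marked. The difference between these lists was not tested.

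**Figure D4:**
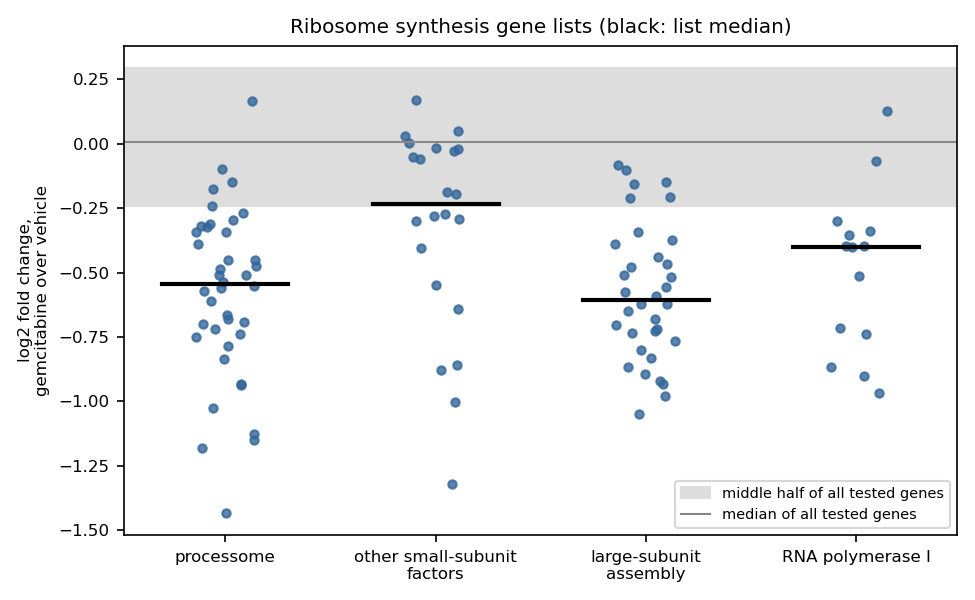
Log2 fold changes (edgeR, gemcitabine over vehicle) of single genes in the processome list and 3 other ribosome synthesis lists, with list medians in black (−0.54, −0.23, −0.61 and −0.40) and the interquartile range of all tested genes in grey. The processome, large-subunit and RNA polymerase I medians lie below the grey band, and the other small-subunit median lies at its lower edge.

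The E-box was present in 12 of the 17 called members and in 6 of the 23 not called. Of all 14203 genes with a start, 146 of the 1390 with the hexamer (10.5%) and 487 of the 12813 without were called lower. Among the large-subunit factors, 11 of 15 genes with the hexamer and 6 of 18 without were called lower, and among the other small-subunit factors 4 of 5 and 1 of 17. The median log2 fold change was −0.69 for the 18 members with an E-box and −0.40 for the 22 without. The fall was not limited to genes with the hexamer, since NOP56, WDR3, RIOK1, WDR36 and NOP58 were called without one. In the reverse case FBL, UTP4, WDR46, NOP14, DCAF13 and BYSL held an E-box and were not called. In the other lists, the hexamer was present in 15 of 33 large-subunit windows (45.5%), 5 of 22 other small-subunit windows (22.7%) and 1 of 14 RNA polymerase I windows (7.14%). Over all 14203 genes with a start, the median log2 fold change was −0.085 with the hexamer and 0.016 without. Among the members' other motifs, searched on both strands, the ETS-type CCGGAAG was present in 15 windows (37.5%, against 17.7% of all), the YY1-type AAGATGG in 6 (15%, against 6.99%), TATAAA in 3 (7.5%, against 5.79%) and the NRF1-type GCATGCG in 1 (2.5%, against 6.13%). No motif's letters contain those of another. These matches describe letters in the reference and say nothing of which protein was bound in these cells.

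**Figure D5:**
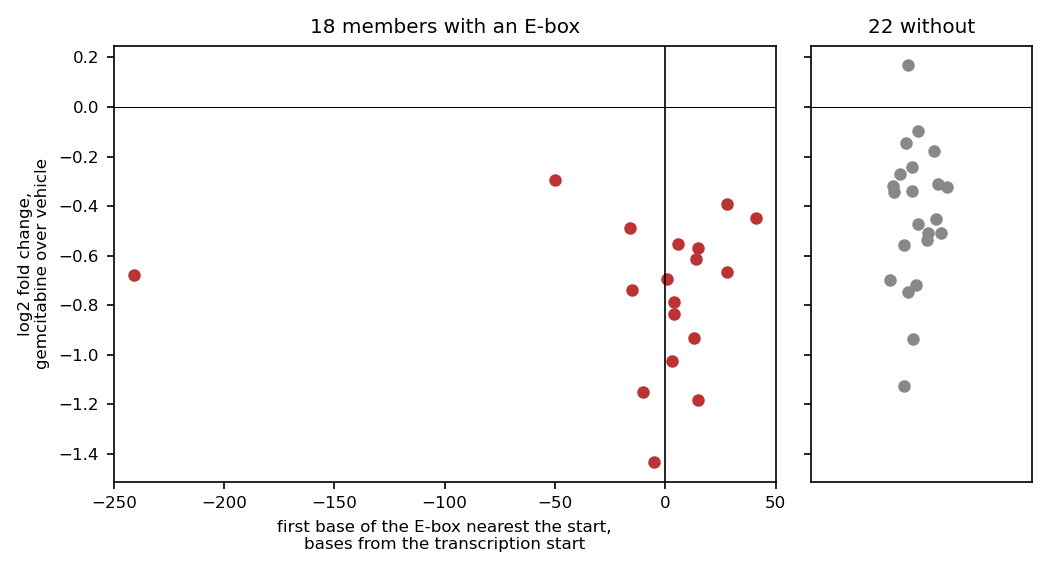
Position of the E-box nearest the transcription start (x axis, bases from the start) against the log2 fold change (y axis, gemcitabine over vehicle) for the 18 genes that hold one, and the fold changes of the 22 without (right). Points gather at the start, with UTP14A at −241 as the exception, and the medians are −0.69 and −0.40.

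A DNaseI peak lay within 1000 bases of the start for 22 of the 40 members in vehicle (55.0%, 95% Wilson interval 39.8 to 69.3%) and 21 in gemcitabine (52.5%, interval 37.5 to 67.1%). The shares were 25.3% and 29.2% of the 14203 tested genes with a start, and 2657 and 2979 of the 7441 of them at the members' expression level (35.7% for vehicle). For gemcitabine, this last share lies inside the members' interval. The intervals cover counting error alone, and with 1 library per condition no test between conditions was made. The score of a peak is −10 times the log10 of the peak caller's p-value. With peaks of a score of at least 100, the members' shares fell to 15% in vehicle and 22.5% in gemcitabine, beside 7.41% and 9.03% of all genes with a start. The members' intervals overlapped at this score (7.06 to 29.1% and 12.3 to 37.5%), so no order of the conditions is read from either cut-off. The lists held 9606 peaks for vehicle and 10695 for gemcitabine. A peak was found in both lists for 14 members, among them RRP9, WDR43, IMP4, NOL6 and NAT10, in vehicle alone for 8, in gemcitabine alone for 7 and in neither for 11. RRP9, with the largest fall in RNA, had a promoter peak in both, with a score of at least 100 in each. UTP20 had one in vehicle alone, and NOP56, RCL1, WDR3 and PWP2 in neither list. FBL, the most highly expressed member, also had a peak in neither list. A missing peak is therefore not read as a closed promoter. The median log2 fold change was −0.51 for members with a peak in either list and −0.55 for those without, so the medians were close.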

How the data were processed

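PANC1 cells were profiled by RNA-seq (2 vehicle and 2 gemcitabine libraries) and DNaseI-seq (1 library each). Single-end reads had been mapped by the authors with TopHat2 2.0.8 (genome hg19), followed by Cuffdiff 2.0.2 with the protein-coding genes of Gencode. The deposited table holds estimated counts (fragments assigned to each gene, 86.8% of the values whole) and FPKM computed by the authors with Cuffdiff. It also has 2 scaled per-sample columns, which were not used. The deposited peak lists, called by the authors with MACS per condition, give a score of at least 50. Scores served only to filter peaks, at the same minimum in both lists, and were not compared between conditions.

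Estimated counts were rounded and tested with edgeR 4.0.16 (R 4.3.3; TMM, quasi-likelihood, Benjamini-Hochberg adjustment) over the 14854 genes with at least 10 fragments in all 4 libraries together. Calls needed an adjusted p under 0.05, a fold change over 1.5, a mean FPKM of at least 0.1 in a condition and a difference of at least 1 FPKM. Alternatives were DESeq2 1.42.0, limma 3.58.1 on log2(FPKM + 1) or log2(FPKM + 0.1), other scalings and filters, and leaving out each library. The fit was tested on simulated data. Standard errors were derived from the log2 fold change and the F statistic of the edgeR test. p-values and standard errors measure only the spread between these libraries, with the spread of a gene moderated by that of the other genes.

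Names were matched by Ensembl identifier (19619 of 20461 genes). Starts, exons and sequence came from GRCh37 with a GENCODE release lifted to it, later than the authors' annotation. EMG1, AATF, DDX52 and PECAM1 found no match. Members and lists, with the subcomplex of each member, were chosen with earlier results of these data known, so no list was tested. All members were named, with library values for the largest fall, the smallest change and any gene that rose per subcomplex, and at most 4 genes, those with the smallest adjusted p, of each other list.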

Additional observations from a re-analysis of the deposited data

How the results depend on the processing

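No paired analysis was possible because the index that numbers the libraries in the table cannot be tied to the replicate numbers in the labels. The 17 members called lower were the same 17 genes with DESeq2, RLE size factors, no count filter, edgeR's expression filter and an adjusted p under 0.01. With library totals 13 were called (PWP2, UTP14A, UTP25 and LTV1 were lost), 30 were lower at an adjusted p under 0.05, the median log2 fold change was −0.43, and the median of all tested genes moved to 0.12. With limma on FPKM, the calls lower were 11 under both pseudocounts with the filter. Members lower at an adjusted p under 0.05 then numbered 19 (pseudocount 0.1) and 17 (pseudocount 1), with medians of −0.39 and −0.38. Without a filter on FPKM, limma called 0 of the 40 members and 0 of 17783 genes, with 28 members lower and 4689 genes changed at an unadjusted p under 0.05 and a median of −0.38. The cause was not tested. For the other lists limma gave 3 other small-subunit and 3 RNA polymerase I genes called lower under both filtered settings, 14 (pseudocount 0.1) and 13 (pseudocount 1) large-subunit genes, and 0 in every list without the filter.

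One member, KRR1, was higher at an adjusted p under 0.05 with library totals, with edgeR's expression filter and without gemcitabine library 2. Leaving out 1 library gave 17 to 18 members called lower, 28 to 37 lower and 0 to 1 higher at an adjusted p under 0.05, and medians from −0.56 to −0.50. The TBL3 log2 fold change turned positive with library totals (0.011) and with limma (0.135 with a pseudocount of 1, with and without the filter, and 0.137 with 0.1), and that of UTP23 without vehicle library 2 (range over the libraries left out −0.27 to 0.011). At a peak score of at least 100, 6 members in vehicle (15%, against 7.41% of all genes with a start) and 9 in gemcitabine (22.5%, against 9.03%) had a peak within 1000 bases of the start. Depth did not limit the members, which had at least 140 fragments in each library, but 2 libraries per condition limit the error estimate.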
